A study of Salmo salar with 34 samples.

Results

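The comparison described here set all Atlantic salmon that received a high level of dietary trace minerals against all that received a low level, whichever mineral source they were fed. The members were taken from the sample labels alone: 15 high level fish and 19 low level fish, 34 of the 34 arrays of the series. The level groups were made up of high IM (6 fish, 4 females and 2 males), high OM (9 fish, 3 females and 6 males), low IM (8 fish, 5 females and 3 males) and low OM (11 fish, 6 females and 5 males). IM stands for inorganic minerals (metal sulphates, and sodium selenite) and OM for organic minerals (metals bound to amino acids or peptides, and selenium yeast). All fish were post-smolts, the seawater stage of young salmon, were held in tanks with sea water, and were sampled after 12 weeks. The paper states that all tanks had weekly handling stress in the middle of the trial and lowered oxygen saturation in its last weeks. The age of the fish is not given in the labels, and the labels do not say which of the trial's numbered diets high and low stand for. Each diet was given to several tanks, and which fish shared a tank is not among the labels, so every fish was taken as an independent sample and p-values measure the spread between fish only.

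The supplemented minerals were copper, iron, manganese, selenium and zinc. All are needed in small amounts, as cofactors in metal-dependent enzymes or, for selenium, as part of selenoproteins that remove peroxides. The gut is where they enter the body: absorptive cells take metals up through membrane transporters, store iron in ferritin, bind zinc and copper to metallothionein and pass them on to the blood, and this handling is known to be adjusted to supply. Midgut mRNA levels were therefore compared between levels, with 1 fish per array.

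Each one-colour array carries 14841 probes. The identifiers of the probes are not paired with gene names in the sources used here, so the metal transporters, storage proteins and enzymes named above could not be looked up, nor could the tissue be checked by its marker genes, and all results are per probe. Values are given as log2 signal relative to the 75th percentile of the same array, so that 0 is the level of a fairly bright probe and a difference of 1 is a doubling. This 75th percentile ran over 90.4 to 401 intensity units (median 277.0) on high level arrays and 87.9 to 863 (median 240.2) on low level arrays. Between 8786 and 12790 probes (median 11390) were well above background on high level arrays, and between 9650 and 13682 (median 10843) on low level arrays, a difference in means of 109 probes (two-sided permutation test, p = 0.783). Among 6 such array-wide measures, the smallest p was 0.328, for the mean of the negative control spots over background, or 0.989 after adjustment over the 6. These tests took no account of sex or source, so they cannot show opposite imbalances within the sexes, which would cancel. On the arrays as a whole, 4 fish stood apart on the first principal component, which held 28.2% of the variance: high OM females 3, 4 and 5 and low OM male 6, at 87.2 to 158 on it. The SD of log2 signal was 2.98, 3.03, 3.11 and 2.80 on these arrays, against medians of 3.37 on high and 3.40 on low level arrays. Whether this narrower spread bears on the differences between the sexes was not tested. Low OM females 5 and 6 lay with the high level fish at several of the probes described below, against their label, and values without each of them are given there. Leaving out a fish that lies with the other level tends to enlarge the difference. The ranges with every array left out in turn are given at the end.

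By adjusted p, more probes passed the test for mineral level than for source or sex, the other terms of the same fit. Of 12885 probes tested, 1323 (10.3%) passed a Benjamini-Hochberg adjusted p of 0.05 for level in limma with source and sex as additive terms. Of these, 639 (4.96%) were higher and 684 (5.31%) lower at the high level. In that fit mineral source gave 0 probes past the threshold (983 at an unadjusted p under 0.05), and sex gave 527. The level differences were mostly of modest size. The median log2 fold change, high minus low, was 0.61 among the probes that rose (a fold of 1.52) and -0.67 among those that fell (a fold of 0.627), beside 0.03 over all probes tested. Of the 1323 probes, 353 (26.7%) differed by less than 0.5 on the log2 scale, and 206 by more than 1, of which 100 were higher and 106 lower. By a threshold on the log2 fold change of 0.81 in either direction with an unadjusted p under 0.05, the kind of criterion used in the study, 611 probes (4.74%) were counted, 320 higher and 291 lower. By that same count sex gave 653 probes, more than level, and mineral source 300. The first of the scan days held females only, so the sex counts cannot be told apart from scan day and slide. Only 388 probes (3.01%) met both criteria for level, 176 higher and 212 lower.

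**Figure D1:**
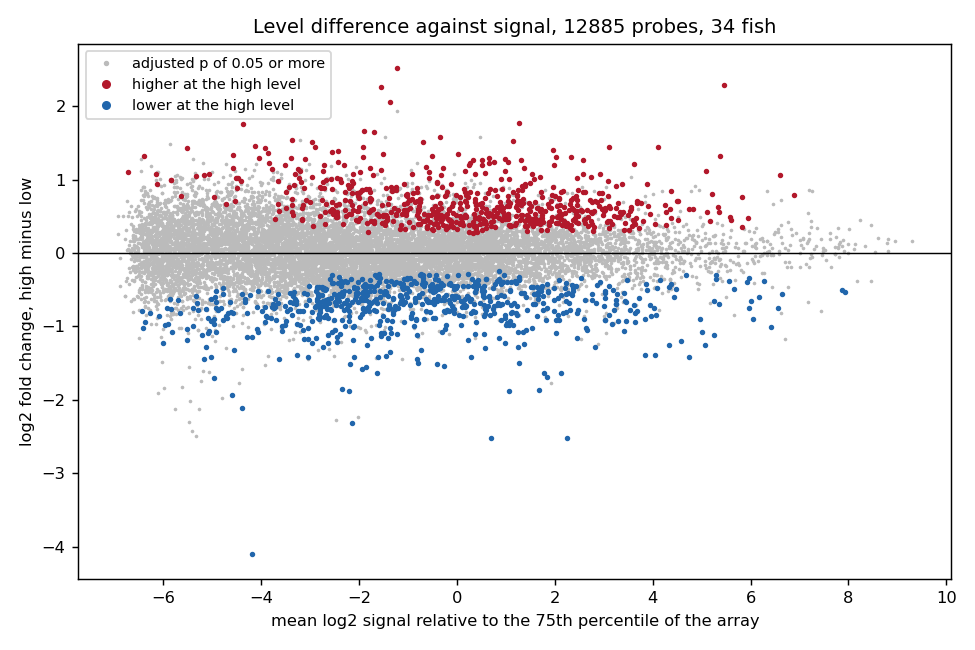
Log2 fold change for level, high minus low (vertical axis), against the mean log2 signal relative to the 75th percentile of the array (horizontal axis), 1 point per probe for 12885 probes over 34 fish. Probes with an adjusted p under 0.05 are coloured (639 rises in red, 684 falls in blue) and lie on both sides of 0 over most of the signal range, more sparsely at the dim end.

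No probe separated the levels completely: at 0 of 12885 probes (0%) did the high and the low level arrays not overlap. The share of probes called depended on signal. With the probes put into 4 equal bins by mean signal, 2.58%, 8.51%, 12.7% and 17.3% were called, in order of rising signal, while the median standard error of the level difference in the same bins was 0.327, 0.233, 0.165 and 0.138 on the log2 scale. Of the 7597 probes well above background on all 34 arrays, 1100 (14.5%) were called, and of the 5288 that were dim on at least 1 array, 223 (4.22%). Dim called probes were more often lower (158) than higher (65) at the high level. For 1 probe called lower, no high level array was well above background, so its level there is only bounded.

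The 2 largest rises and the 2 largest falls among called probes that were well above background on every array, with 1 sign in all 4 combinations of source and sex, are described one by one. In all, 482 higher and 454 lower probes met these conditions, and the next in size after those shown had log2 fold changes of 1.76 and -1.88. The rule left aside 1 called probe with a larger fall and 1 with a larger rise than any of those shown, each dim on at least 1 array.

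Ssa#S50837367 had the largest rise under this rule and was a bright probe in every fish measured. At the high level its log2 signal was lowest at 5.93, had a median of 6.67 and was highest at 8.07 (15 fish). At the low level the lowest value was 2.98, the median 4.22 and the highest 7.15 (14 fish). The high level fish were tightly placed, at 6.69 ± 0.54 (SD), whereas the low level fish ranged widely, at 4.49 ± 1.36, and 12 of the 14 low level fish lay below all high level fish, the exceptions being low IM female 4 at 6.41 and low OM female 5 at 7.15. The fitted log2 fold change was 2.29 (SE 0.39), a fold of 4.89 (limma adjusted p = 0.000879). On 5 low level arrays the spot had been marked as an outlier by the scanner software and was left out. Had they been kept, those spots would have stood at 4.07 to 6.64 (the highest in low OM female 6), and the log2 fold change would have been 2.07 (adjusted p = 0.000668). Without low OM female 5 it was 2.48.

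Ssa#S19102066 rose with the clearest separation of the probes named. Its log2 signal at the high level ran over -0.98, -0.09 and 1.05 (lowest, median and highest of 15), and at the low level over -3.64, -2.39 and 0.06 (19 fish). Of the low level fish 17 lay below all high level fish, and the exceptions were low OM females 5 and 6, at 0.06 and -0.74. The log2 fold change was 2.06 (SE 0.29), a fold of 4.16 (adjusted p = 0.000223), or 2.16 without low OM female 5 and 2.12 without low OM female 6. All IM fish were separated by level here: high IM females averaged 0.15 ± 0.65 (n = 4) and low IM females -2.38 ± 0.68 (n = 5), and high IM males had 0.54 and -0.85 while low IM males had -3.06, -3.32 and -2.54.

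Ssa#GRASP209733777 fell. Its log2 signal at the high level was lowest at -2.0, with a median of 1.0 and a highest value of 2.49 (15 fish), and at the low level it was lowest at 0.92, with a median of 3.71 and a highest value of 4.96 (19 fish). The log2 fold change was -2.52 (SE 0.40), a fold of 5.74 lower (adjusted p = 0.000367), and 15 of 19 low level fish lay above all high level fish. The low IM fish were closely grouped, at 3.77 ± 0.28 (n = 8), against 0.88 ± 1.19 in high IM fish (n = 6). The 4 low level fish within the range of the high level fish were all OM females (numbers 3 to 6), at 0.92, 1.82, 1.0 and 1.55. The log2 fold change was -2.63 without low OM female 5 and -2.60 without low OM female 6.

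Ssa#GRASP209156075 fell by a similar amount with a much wider spread. Its log2 signal at the high level was lowest at -3.18, with a median of -1.53 and a highest value of 2.18 (15 fish), and at the low level lowest at -1.70, with a median of 2.52 and a highest value of 3.79 (18 fish). The groups overlapped over most of this range, and 10 of the 18 low level fish lay above all high level fish. The log2 fold change was -2.52 (SE 0.62), a fold of 5.75 lower (adjusted p = 0.00990). High OM males were the lowest stratum, at -2.07 ± 0.86 (n = 6), and low OM males the highest, at 2.70 ± 0.74 (n = 4), while high OM females had -0.56, -0.26 and 2.18 and low OM females averaged 1.07 ± 2.33 (n = 6). Without low OM female 5 the log2 fold change was -2.70 and without low OM female 6 it was -2.66. With sex and fish number as a replicate block the log2 fold change was -2.39 and no longer passed (adjusted p = 0.0577).

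**Figure D2:**
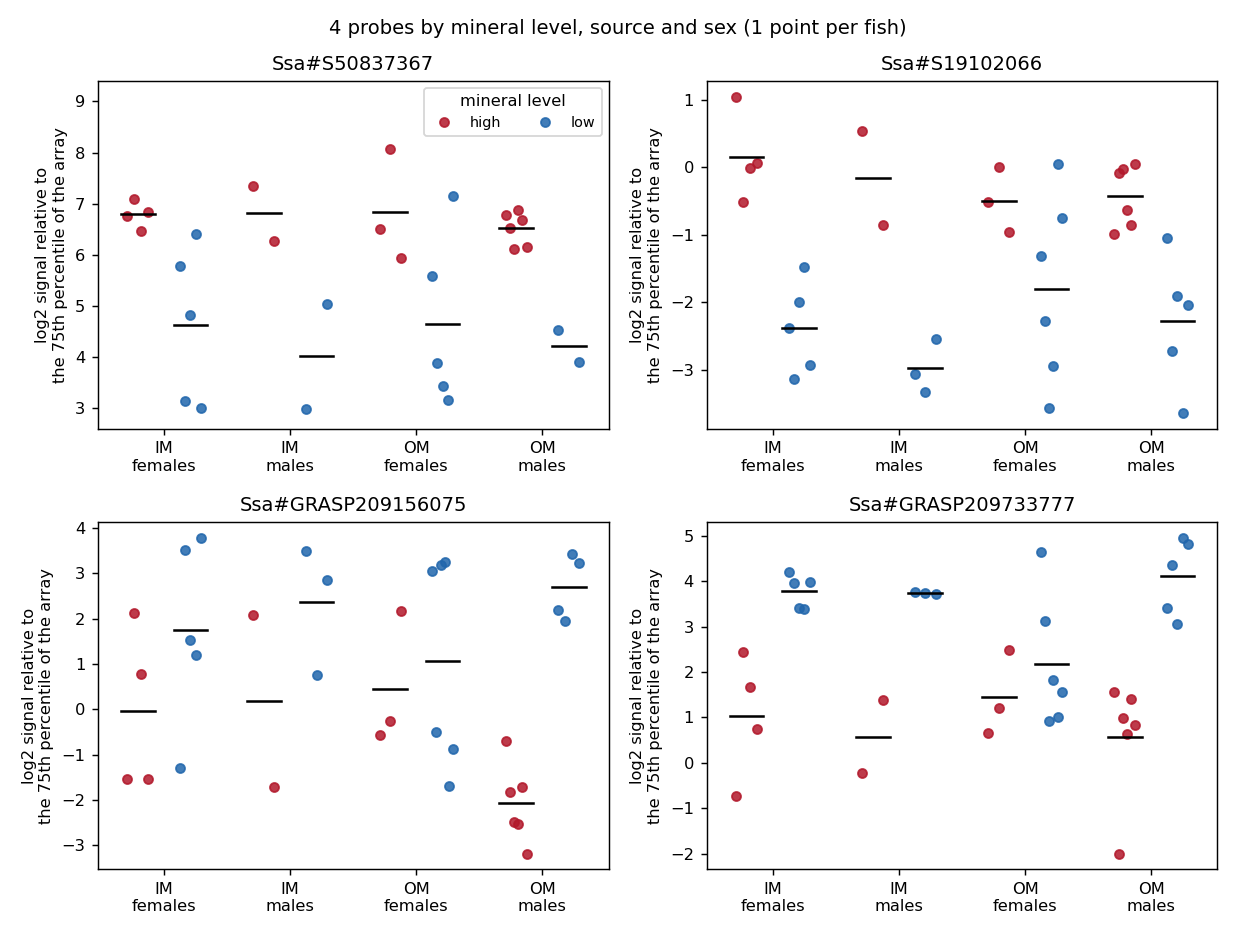
Log2 signal relative to the 75th percentile of the array (vertical axes) of 4 probes in each combination of mineral source and sex, high level fish in red to the left of low level fish in blue, 1 point per fish with the group mean as a bar. Both upper probes are higher and both lower probes lower on average at the high level in all 4 combinations. The rule that chose the probes required this. The low OM females include fish within the range of the high level fish at every probe.

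For each of these probes the sign of the level difference was that of the fit in 6 of the 7 slides. At least 6 slides had the fitted sign at 87.7% of called probes and 24.9% of all probes tested. The named probes were chosen on the same fish, so this describes them and tests nothing. For Ssa#S50837367 the level difference, fitted within 1 source at a time, was 2.35 in IM and 2.24 in OM on the log2 scale, and the difference between the sources was 0.12 with a 95% interval of -1.47 to 1.72. For Ssa#S19102066 it was 2.63 in IM and 1.62 in OM (difference 0.996, 95% interval -0.16 to 2.16). The fitted falls had larger values in males than in females. Fitted within 1 sex at a time, the level difference of Ssa#GRASP209156075 was -3.91 in males and -1.23 in females on the log2 scale, and that of Ssa#GRASP209733777 was -3.43 in males and -1.79 in females. The 95% intervals of the male minus female difference were -5.12 to -0.30 and -3.19 to -0.04, and neither passed adjustment over all probes (adjusted p = 0.156 and 0.193).

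Whether the response to level depended on the source was tested with an interaction term. It was past the threshold at 0 of 12885 probes (0%), with 574 at an unadjusted p under 0.05. This does not show that IM and OM acted alike. Over the 1323 probes called for level, the 95% interval of the difference between sources reached a median of 0.67 to either side on the log2 scale, about as much as the median size of the level difference itself (0.65). The sign of the level difference, fitted in each source separately, was that of the joint fit in both sources at 1322 of the 1323 probes, against 61.9% of all probes tested. Since the joint fit holds the same fish, this describes the called probes and tests nothing. In the same sense 1108 of the called probes (83.7%) had 1 sign in all 4 combinations of source and sex, against 23.9% of all probes.

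A reading that does not share fish is had by choosing probes in 1 source and reading them in the other. Fish of both sources lay on the same slides, so this reading is separate in fish and not in slide. Within IM, 65 probes (0.504%) passed the adjusted threshold, 21 higher and 44 lower at the high level. In OM fish all 21 were also higher (as were 69.6% of all probes higher in IM), 18 of them at an unadjusted p under 0.05. Their median log2 fold change in OM was 0.70, beside 0.06 over all probes. Of the 44 that were lower in IM, 41 were lower in OM (as were 56.1% of all probes lower in IM), 18 of them at an unadjusted p under 0.05. Within OM, 49 probes (0.380%) passed, 17 higher and 32 lower. In IM fish 13 of the 17 were higher (as were 55.4% of all probes higher in OM), only 4 of them at an unadjusted p under 0.05. The median log2 fold change of the 17 was 0.13 in IM against 1.69 in the OM fish that chose them. All 32 were lower in IM (as were 70.2% of all probes lower in OM), 16 of them at an unadjusted p under 0.05, with a median of -0.57. By fold change and unadjusted p, 844 probes (6.55%) were counted in IM, 205 higher and 639 lower, and 1022 (7.93%) in OM, 729 higher and 293 lower. No probe of the 4 sets that passed adjustment had the opposite sign at an unadjusted p under 0.05 in the other source. Over all 12885 probes, 2376 in OM and 2159 in IM had an unadjusted p under 0.05, of either sign.

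Read per fish, the probes chosen in IM placed most OM fish by level. The mean of the 19 higher probes minus the mean of the 23 lower ones, over probes well above background on all arrays, was -0.01 to 1.76 (median 1.17) in the 9 high OM fish and -1.94 to 1.65 (median -0.75) in the 11 low OM fish. Of the low OM fish 9 lay below all high OM fish (8 when all 65 probes were used). The exceptions were low OM female 5, at 1.21, and low OM female 6, at 1.65, and the next highest low OM fish was at -0.12. The probes chosen in OM (9 higher and 30 lower), read in IM, gave -2.61 to -1.84 (median -2.39) in the 6 high IM fish and -4.23 to -2.04 (median -3.42) in the 8 low IM fish. Here 6 of 8 low IM fish lay below all high IM fish (also 6 with all 49 probes), and low IM female 3 (-2.04) and low IM male 5 (-2.11) did not. Those were among the dimmest arrays, with 75th percentiles of 87.9 and 94.6 intensity units. The part of their dimness in this was not tested. Over all 34 fish less 1, the count of probes called for level was 1715 without low OM female 5 and 1650 without low OM female 6.

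**Figure D3:**
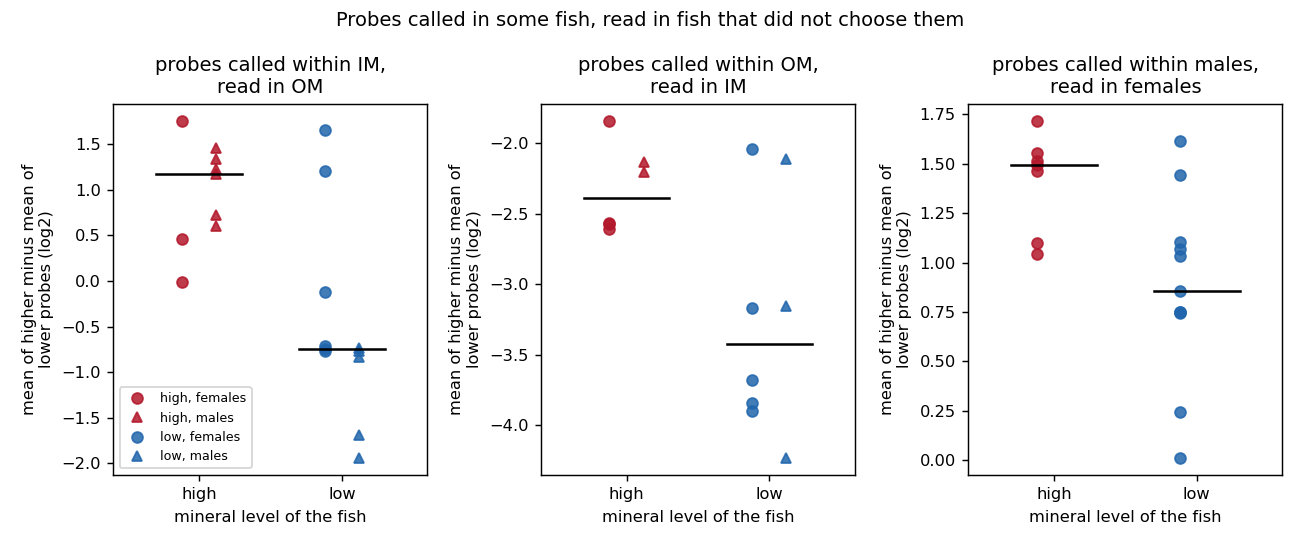
Mean log2 signal of probes called higher minus that of probes called lower at the high level (vertical axes), over probes well above background on all arrays, with the probes chosen in 1 set of fish and read in fish that did not choose them, high level fish in red to the left of low level fish in blue, 1 point per fish and the median as a bar (circles females, triangles males). High level medians were 1.17, -2.39 and 1.49 and low level medians -0.75, -3.42 and 0.86 in the panels from left to right, with 2, 2 and 4 low level fish not below all high level ones (in females 9 of 11 when dim probes were included).

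The sexes differed in how many probes passed. Within the 8 high and 8 low level males, 1957 probes (15.2%) passed the adjusted threshold, 857 higher and 1100 lower. Within the 7 high and 11 low level females 0 probes passed (0%), with 2627 at an unadjusted p under 0.05. These fits within a sex held no term for slide or scan day. By the fold change and unadjusted p, 1941 probes (15.1%) were counted in males, 764 higher and 1177 lower, and 1575 (12.2%) in females, 1318 higher and 257 lower. Of the probes that passed adjustment in males, more had the same sign in females than over all probes of that sign in males. It held for 647 of 857 higher probes (75.5%, against 59.7% of all probes higher in males). For lower probes it held at 744 of 1100 (67.6%, against 46.5% of all probes lower in males). The changes read in females were small, with medians of 0.22 and -0.21 on the log2 scale, against 0.84 and -0.93 in the males that chose the probes. When males chose by fold change and unadjusted p instead, 517 of 764 higher probes (67.7%) were higher in females. Only 562 of 1177 lower probes (47.7%, against 46.5% of all probes lower in males) were lower in females, with a median of 0.04 there. Of these 1177, 146 were lower and 170 higher in females at an unadjusted p under 0.05. On the mean of the 745 higher minus that of the 619 lower male probes that were well above background on all arrays, high level females lay at 1.04 to 1.72 (median 1.49) and low level females at 0.01 to 1.61 (median 0.86), and 7 of 11 low level females were below all high level females. With all 857 higher and 1100 lower probes, dim ones included, the separation was smaller: high level females lay at 2.12 to 3.12 (median 2.80) and low level females at 1.35 to 3.05 (median 2.39), and only 2 of 11 low level females were below all high level females. The reading of female probes in males also differed by sign. Of the 257 probes lower in females by fold change and p, 206 were lower in males (80.2%, against 60.1% of all probes lower in females). But of the 1318 higher in females only 251 were higher in males (19%, against 46.1% of all probes higher in females), with a median of -0.54 there. Without high OM females 3, 4 and 5, probes in females at an unadjusted p under 0.05 went from 2627 to 1347. The median level difference over all probes in females went from 0.07 to -0.02. Fewer fish were left in that fit, and the fold change counts were not taken from it.

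The difference itself, tested as level by sex, passed at 209 probes (1.62%), and 3129 had an unadjusted p under 0.05. At 150 of the 209 the level difference was more negative in males than in females, with medians of -1.36 in males and 1.65 in females, and at 59 it was more positive, with medians of 0.99 in males and -0.36 in females. Of the 209, 8 were also called for level, 149 were lower in high level males and higher in high level females, and 54 the reverse. This count rested on few fish. Without the 4 arrays that stood apart on the first principal component it was 0 (1612 at an unadjusted p under 0.05), without high OM female 5 alone 0, without low OM male 6 alone 4, and with slide as a block 0 (2081 at an unadjusted p under 0.05). Females without high OM females 3, 4 and 5 gave 1 probe for level, and males without low OM male 6 gave 1653.

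**Figure D4:**
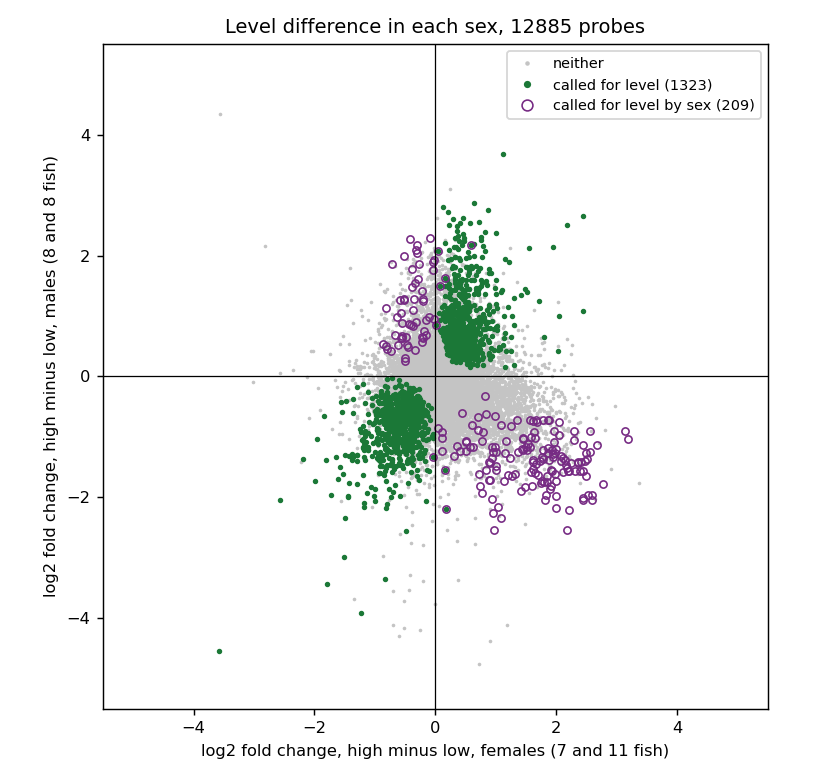
Log2 fold change for level, high minus low, in females (horizontal axis) and in males (vertical axis), 1 point per probe for 12885 probes, with the 1323 probes called for level in green and the 209 called for level by sex as purple rings. Nearly all green points lie in the quadrants of equal sign and nearly all rings in those of opposite sign, 149 of them lower in high level males and higher in high level females. Both sets were called on the fish plotted, so their quadrants follow largely from the choice and test nothing.

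The median correlation between arrays was higher among high level fish than among low level fish, with ranges that overlapped. Arrays were correlated over 6548 of the 12885 probes tested. Missing values alone do not account for this subset, since 1106 probes had an outlier spot on any array. The correlations hold for that subset only. The median Pearson r between the arrays of 2 high level fish was 0.933 (105 pairs, 0.815 to 0.995). It was 0.905 between 2 low level fish (171 pairs, 0.767 to 0.988) and 0.904 between a high and a low level fish (285 pairs, 0.755 to 0.988). The pairs share arrays, and no test was made. The median SD of a probe within a combination of source and sex was 0.364 in high OM males (n = 6) and 0.691 in low OM males (n = 5, low OM male 6 among them). In IM males it was 0.265 at the high level (n = 2) and 0.455 at the low level (n = 3). Females of the 2 levels were close in both sources. They had 0.547 in high OM (n = 3) and 0.533 in low OM (n = 6), and 0.518 in high IM (n = 4) and 0.512 in low IM (n = 5).

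Each of the 7 slides held fish of both levels. The sign of the fitted level difference was seen in every slide at 526 of the 1323 called probes (39.8%, against 6.29% of all probes tested) and in at least 6 slides at 1160 (87.7%, against 24.9%). The probes were called on the same fish, so a higher share than over all probes follows from the choice and tests nothing. With slide as a fixed block 472 probes passed, 210 higher and 262 lower, of which 461 were also called without it. All 1323 kept their sign under this block, and 1316 had an unadjusted p under 0.05. The first scan day held females only, so scan day is tied to sex. With scan day as a block 1433 probes passed, and within the second day alone 769, 315 higher and 454 lower. The split between higher and lower probes was another in the table of processed values that the authors deposited. There 1573 probes passed, of which 1390 (88.4%) were higher and 183 lower, against 48.3% higher with the scanner values. Over all probes tested, the median level difference was 0.17 in that table on the log2 scale and 0.03 with the scanner values. With normexp background correction of the scanner values the median was 0.14, and 51.9% of 480 called probes were higher. Whether the shift in the authors' table accounts for its excess of higher probes was not tested. Of the 1323 probes called here, 1318 had the same sign in the authors' values.

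**Figure D5:**
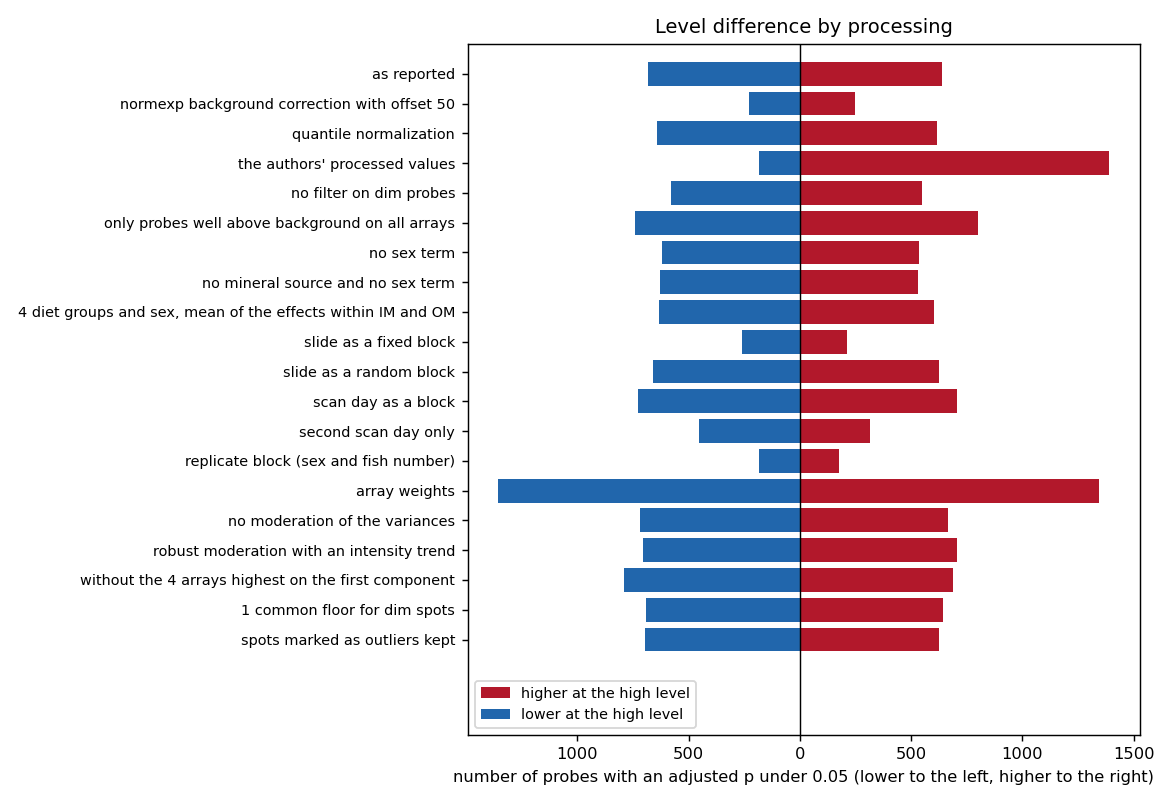
Number of probes with an adjusted p under 0.05 for level (horizontal axis), higher at the high level to the right of 0 and lower to the left, for the values as reported and for each of 19 other ways of processing or fitting (vertical axis). The total ran over 363 with sex and fish number as a block to 2699 with array weights, and the authors' processed values gave 1390 higher and 183 lower probes.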

How the data were processed

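Midgut RNA of 34 fish was hybridised to one-colour (Cy3) Agilent arrays. The deposited scanner files hold the spot intensity after Feature Extraction 12.0.1.1 had subtracted the background, and the authors did not scale these intensity values between arrays. The software had set 11.1% of spots to a floor, 1 value per array. The authors' table of processed intensity values, 7.42% of it blank, served as an alternative. The log2 of the deposited processed signal minus the 75th percentile of each array was used. Control spots and 2160 outlier spots were left out (0 spots were saturated), and 12885 of 14841 probes, well above background on at least 6 arrays, were kept. The signal of the arrays and their number limit the precision. Pearson r between arrays was 0.832 to 0.992, and no pair of arrays held the same values.

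High minus low was fitted with limma 3.58.1 in R 4.3.3 on all 34 arrays, with source and sex as additive terms and moderated variances, and p-values were adjusted by the Benjamini-Hochberg method over all probes. The terms level by source and level by sex, and fits within 1 source or sex, used the same settings. The permutation tests used 100000 resamples. The fit was tested on simulated data. The alternatives are those shown in the plot of the counts by processing, and each array left out in turn. Of these, the fits without the 4 arrays that stood apart, with 1 common floor and with outlier spots kept, those within a sex without such arrays, and array weights for the interaction terms were added after seeing the data. None of the probe identifiers matched the RefSeq gene table (0 of 14841), so single probes are named by identifier: the 2 largest rises and 2 largest falls among probes with an adjusted p under 0.05, well above background on all arrays and with 1 sign in the 4 combinations of source and sex. Gene and marker lists could not be used. The comparison and the rules were chosen with earlier results of these data known.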

Additional observations from a re-analysis of the deposited data

Results flagged for a closer look

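A single fish stood far from the others of its group at a probe named above. High OM male 2 had a log2 signal of -2.0 at Ssa#GRASP209733777, while the next lowest of the 6 high OM males was at 0.63. Of 39 sets of 4 to 10 fish screened in this way, 1 was marked, and chance marks about 1 in 20. Without this fish the log2 fold change for level was -2.33.

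The level difference was not the same in males and females at 209 probes by the interaction test, a count that was 0 without high OM female 5 and 1207 without low OM male 3.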

How the results depend on the processing

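Counts of probes called for level (1323 by adjusted p, 611 by fold change and p) stayed within 1.5 times under most of 19 alternatives, 14 and 16 of them. The exceptions by adjusted p were normexp background correction (480), slide as a fixed block (472), the second scan day only (769), array weights (2699) and the replicate block of sex and fish number (363, 354 of them also called without it). By fold change and p they were normexp (136), only probes well above background on all arrays (307) and the second scan day (976). Leaving out each array in turn gave 953 to 1715 and 488 to 728. The share of higher probes by fold change and p, 52.4%, was 81.3% with the authors' values, 39.0% with normexp, 42.0% with array weights and 36.5% without the 4 arrays that stood apart. Normexp moved the median of all probes to 0.14. The causes were not tested.

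For the named probes, every log2 fold change kept its sign and 1 lost its call (Ssa#GRASP209156075, replicate block, adjusted p = 0.0577). The range over the alternatives was 2.07 to 2.61 for Ssa#S50837367, 1.24 (normexp) to 2.35 for Ssa#S19102066, -3.13 to -2.01 for Ssa#GRASP209156075 and -2.78 to -2.19 for Ssa#GRASP209733777. With each array left out in turn it was 2.14 to 2.48, 1.95 to 2.16, -2.80 to -2.38 and -2.69 to -2.33, in the same order of probes. The labels do not say what the fish numbers stand for. Of 12 same-numbered pairs, 1 had a correlation of deviations over 0.1 (range -0.35 to 0.33), and 7 shared a slide. These few pairs cannot settle whether the numbers pair the fish.

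Level by source stayed at 0 under its 8 alternatives and without any 1 array. Level by sex, 209, became 0 with normexp, slide as a block, array weights or without the 4 arrays, 14 with probes well above background on all arrays, 124 with 1 common floor and 606 with quantile normalization (308 more positive and 298 more negative in males). Leaving out each array in turn gave 0 (without high OM female 5) to 1207 (without low OM male 3), and only without high IM females 1 or 4, high IM male 1, low IM female 2, low IM male 2 or low OM male 2 was it within 1.5 times. Level within females was 1 without high OM females 3, 4 and 5. The difference in well detected probes per array was -272 on the second scan day (permutation p = 0.539) and 2.73 to 289 with each array left out.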
